A study of Mus musculus with 72 samples.

Results

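The comparison described here set dorsal hippocampus (DH) of male mice given shock together with a cue against DH of male mice given the cue without shock. Its members were the DH libraries labelled Shock_Cue and Cue under both C57BL/6 substrain labels, which made 24 of the 72 libraries of the study, 12 in each condition. The groups were shock and cue labelled 6NJ, shock and cue labelled 6J, cue labelled 6NJ and cue labelled 6J, with 6 libraries each. Tissue of all 4 groups was taken 30 min after the session. The 12 DH libraries of mice kept in the home cage, again 6 for each label, served as a further baseline, and the same groups in ventral hippocampus (VH) gave a second region. The labels name no transgene or drug, and the age of the mice was not given in the sources used here. The library names hold codes, for example 31A. A code number belonged to 1 condition and 1 strain label, with 2 numbers of 3 codes in each group, so anything shared by a number could be separated from the group only as far as the 2 numbers differed. Whether every code is a mouse of its own is not stated, and the p-values here measure the spread between libraries, which may be partly technical.

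When a mouse explores a new chamber, hears a tone or receives a shock, hippocampal neurons transcribe immediate early genes within minutes. Calcium influx and growth factor signalling act on transcription factors that are already present, among them CREB, which binds cAMP response elements, and serum response factor, which binds CArG boxes. The first products include transcription factors of the FOS, EGR and NR4A families and the synaptic protein ARC, and activity also induces BDNF and the short form of HOMER1. A shock is also a stressor that releases glucocorticoids, and the glucocorticoid receptor raises transcription of genes such as Sgk1, Tsc22d3, Per1 and Fkbp5. In contextual and cued fear conditioning the dorsal hippocampus is known for its part in the memory of the place. The contrast of shock and cue with cue asks what the shock adds. The labels do not describe the chamber or the handling.

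The 24 libraries held 33681457 to 47703347 gene counts each, and mitochondrial genes took 5.96% to 8.64% of them after shock and cue and 5.64% to 6.91% after cue. Nnt, which encodes a mitochondrial transhydrogenase and is deleted in part in C57BL/6J, was at 18.4 to 22.9 CPM (counts relative to the TMM-scaled library total) in the libraries labelled 6NJ and at 36.9 to 44.1 CPM in those labelled 6J. Gabra2, a GABA-A receptor subunit known for low expression in C57BL/6J, was at 101.8 to 123 CPM under the label 6NJ and 221 to 273 CPM under 6J. Both are against the labels, and the libraries are called labelled 6NJ and labelled 6J throughout. The ventral marker Grp, a neuropeptide gene, was at 2.6 to 19.9 CPM in DH and 23.3 to 35.1 CPM in VH, and the DH library 40A, labelled 6NJ and cue, was the highest in DH at 19.8 CPM. Transcripts of the choroid plexus, the tissue beside the hippocampus that makes cerebrospinal fluid, differed widely between dissections. Their marker Ttr, transthyretin, was at 19.3 to 8268 CPM over the 24 libraries. The summed level of 14 choroid plexus markers was 58.4 to 6855 CPM after shock and cue and 51.5 to 9345 CPM after cue. In bulk tissue, fewer cells of a type and less RNA per cell cannot be told apart.

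Adding the shock to the cue gave no gene past the threshold in DH. With 1 mean per group and the mean of both strain labels, 0% of the 19647 genes tested had an adjusted p under 0.05 (edgeR quasi-likelihood test, Benjamini-Hochberg adjustment), and the smallest adjusted p was 0.254. At an unadjusted p under 0.05 there were 1997 genes, 10.2% of those tested, of which 1006 were higher and 991 lower after shock and cue. DESeq2 called 3 genes, Msi1 higher and Lcn2 and Ch25h lower, and limma-voom, in which code number was a random effect, called 0. Without the libraries of number 32, edgeR called 1 gene, Ch25h. The median log2 fold change of all genes was 0.0016, and the median of its size was 0.054, close to the median standard error of 0.059. The 95% interval lay wholly within 1.2-fold of no difference for 12595 genes, 64.1% of those tested, and within 1.5-fold for 17522 genes, 89.2%. The same 36 libraries gave many calls against the home cage. After shock and cue, 1085 genes (5.52%) were higher and 883 (4.49%) lower than in the home cage, and after cue 1463 (7.45%) were higher and 1095 (5.57%) lower. Both of these comparisons share the home cage libraries.

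**Figure D1:**
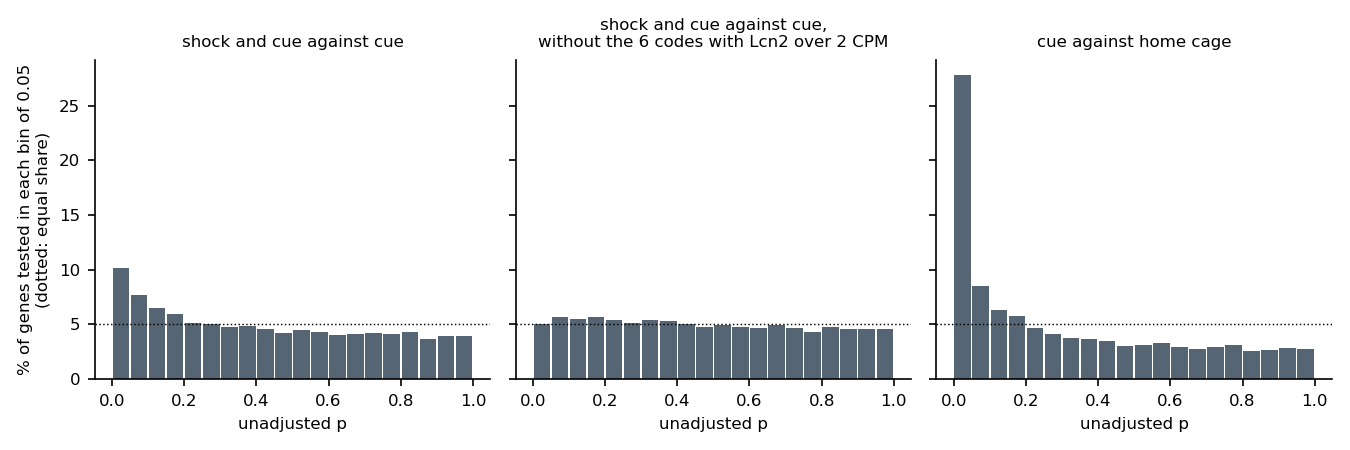
Percent of genes tested (vertical axis) in each bin of the unadjusted p of edgeR's quasi-likelihood test (horizontal axis) for shock and cue against cue, for the same comparison without 6 codes that had Lcn2 over 2 CPM, and for cue against home cage, all in DH. The lowest bin holds 10.2%, 5.07% and 27.8% of the genes, and the dotted line marks the equal share of 5%.

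Promoters of the activity-induced genes are printed here because their members moved together against the home cage while the shock added no call. The stretches are the 250 bases before the annotated start, on the strand of the gene and 5′ to 3′, from RefSeq on GRCm38.p6. They belong to the 5 rapid immediate early genes with the highest mean log2 fold change of the 2 conditions over home cage among the 30 matched in the table that have 1 such window each. Genes on the chromosome of Egr1 were not considered for printing. Capitals mark matches to 4 motifs searched on both strands, the cAMP response element TGACGTCA, the AP-1 site TGANTCA, the EGR site GCGNGGGCG and the CArG box.
Fos (chr12:85473640-85473889, plus strand): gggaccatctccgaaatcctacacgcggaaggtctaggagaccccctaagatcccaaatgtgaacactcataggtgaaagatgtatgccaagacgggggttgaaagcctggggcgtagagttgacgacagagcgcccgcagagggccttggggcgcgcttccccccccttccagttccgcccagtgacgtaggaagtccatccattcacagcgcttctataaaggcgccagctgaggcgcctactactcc
Fosb (chr7:19310046-19310295, minus strand): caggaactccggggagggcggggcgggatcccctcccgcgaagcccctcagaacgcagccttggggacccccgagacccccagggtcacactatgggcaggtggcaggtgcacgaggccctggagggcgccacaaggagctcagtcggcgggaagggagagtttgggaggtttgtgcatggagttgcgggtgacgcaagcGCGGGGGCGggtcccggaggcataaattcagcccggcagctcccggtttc
Nr4a1 (chr15:101266596-101266845, plus strand): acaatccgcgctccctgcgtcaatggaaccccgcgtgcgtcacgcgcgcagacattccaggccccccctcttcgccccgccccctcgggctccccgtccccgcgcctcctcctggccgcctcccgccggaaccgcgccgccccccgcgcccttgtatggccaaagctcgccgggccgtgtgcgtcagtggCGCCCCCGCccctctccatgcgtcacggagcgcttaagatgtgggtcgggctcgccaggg
Junb (chr8:84978749-84978998, minus strand): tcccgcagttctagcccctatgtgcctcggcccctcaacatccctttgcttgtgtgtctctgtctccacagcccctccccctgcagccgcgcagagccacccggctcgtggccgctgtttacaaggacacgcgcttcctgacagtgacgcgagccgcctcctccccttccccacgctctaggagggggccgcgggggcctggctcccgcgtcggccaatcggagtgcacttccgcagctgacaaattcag
Dusp1 (chr17:26508473-26508722, minus strand): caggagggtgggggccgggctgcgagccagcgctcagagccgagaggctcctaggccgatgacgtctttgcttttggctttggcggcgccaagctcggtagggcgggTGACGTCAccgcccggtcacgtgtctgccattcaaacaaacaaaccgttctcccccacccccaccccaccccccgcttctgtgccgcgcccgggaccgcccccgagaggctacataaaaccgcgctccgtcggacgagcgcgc
The windows of Fosb and Nr4a1 each held 1 EGR site, at 50 to 42 and 60 to 52 bases before the start. That of Dusp1 held 1 cAMP response element at 143 to 136 bases before the start, and none of the matches overlapped another. Over the 30 rapid immediate early genes found in the table, 4 held the cAMP response element, 10 the EGR site, 2 the CArG box and 1 the AP-1 site. Over all 27025 genes of the table the shares were 1.77%, 5.33%, 1.62% and 7.82%. A match is a string of letters and not a measured binding site.

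The rapid immediate early genes were high in both conditions, and the shock did not move them further by a detectable amount. Of 37 tested, 0 passed for shock and cue against cue, read against the 0% of all genes, and DESeq2 called none of them. Their median log2 fold change was -0.048, with a range of -0.17 to 0.16, and 9 of the 37 were positive, beside a median of 0.0016 over all genes tested. The 95% interval of 26 members lay within 1.2-fold, beside 64.1% of all genes. That of all 37 tested lay within 1.5-fold, beside 89.2% of all genes. Against the home cage, 29 members were higher after shock and cue and 30 after cue, with 0 lower in either, and the list medians were 0.59 and 0.62. The background shares of higher genes were 5.52% and 7.45%.

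Fos encodes a subunit of the AP-1 transcription factor and is the usual mark of a recently active neuron. Its level (ENSMUSG00000021250; chromosome 12, 85473890 to 85477273, plus strand, GRCm38) was lowest at 17.3 CPM, with a median of 27.8 and a highest value of 39.1 CPM, after shock and cue. After cue these were 24.1, 27.4 and 43.8 CPM, and in the home cage 2.88, 5.58 and 9.52 CPM. Every library of both exposed conditions lay above every home cage library, whereas the 2 exposed conditions overlapped. The log2 fold change of shock and cue over cue was 0.032 ± 0.15 (SE; adjusted p = 0.957), with a 95% interval from 0.825-fold to 1.27-fold. Over home cage it was 2.33 ± 0.17 after shock and cue (adjusted p = 2.11e-11) and 2.3 ± 0.17 after cue (adjusted p = 3.08e-11).

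Fosb, which encodes another AP-1 subunit, had 8.66, 11.8 and 14.1 CPM as its lowest, median and highest values after shock and cue, against 10.8, 11.7 and 16.3 CPM after cue. Home cage libraries had 3.04 to 5.43 CPM. The exposed conditions overlapped and both lay above the home cage, and the log2 fold change of shock and cue over cue was -0.085 ± 0.09 (adjusted p = 0.774). Junb, which also encodes an AP-1 subunit, had 45.6, 59.5 and 77 CPM after shock and cue and 51.8, 65.5 and 73.2 CPM after cue. Its log2 fold change was -0.12 ± 0.065 (adjusted p = 0.539), with an interval from 0.841-fold to 1.01-fold.

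Egr2, a zinc finger transcription factor, stood highest over the home cage among the listed genes. Its gene (chromosome 10, 67535475 to 67542188, plus strand) had 3.97, 8.27 and 14.3 CPM after shock and cue, 6.98, 8.44 and 14.3 CPM after cue and 0.496, 0.928 and 1.83 CPM in the home cage. Both conditions were above all home cage libraries by log2 fold changes of 2.99 ± 0.16 after shock and cue and 3.12 ± 0.16 after cue (adjusted p = 2.65e-15 and 8.95e-16). Between them the difference was -0.12 ± 0.13 (adjusted p = 0.779). The related Egr1 had 159, 203 and 289 CPM after shock and cue and 167, 217 and 257 CPM after cue, a difference of -0.032 ± 0.078.

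Arc encodes a cytoskeletal protein that takes part in removing AMPA receptors from synapses. Its gene (chromosome 15, 74669083 to 74672570, minus strand) had 250.4, 318 and 432 CPM after shock and cue, 213, 333 and 443 CPM after cue and 79, 100.4 and 126 CPM in the home cage. Exposed and home cage libraries did not overlap, and the log2 fold change between shock and cue and cue was -0.0645 ± 0.083 (adjusted p = 0.818), with an interval from 0.851-fold to 1.08-fold. Nr4a1, an orphan nuclear receptor, had 89.2, 107 and 143 CPM after shock and cue and 94, 119 and 134 CPM after cue (log2 fold change -0.077 ± 0.064). Npas4, a transcription factor that responds to calcium in neurons, had 14.8, 21 and 25.7 CPM after shock and cue, 17, 21.2 and 29.4 CPM after cue and 12.6, 13.6 and 24 CPM in the home cage. Npas4 libraries overlapped between all 3 conditions. The difference between shock and cue and cue was -0.058 ± 0.10, while both conditions passed over home cage (0.39 ± 0.10 after shock and cue, adjusted p = 0.0133; 0.45 ± 0.10 after cue, adjusted p = 0.00352).

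**Figure D2:**
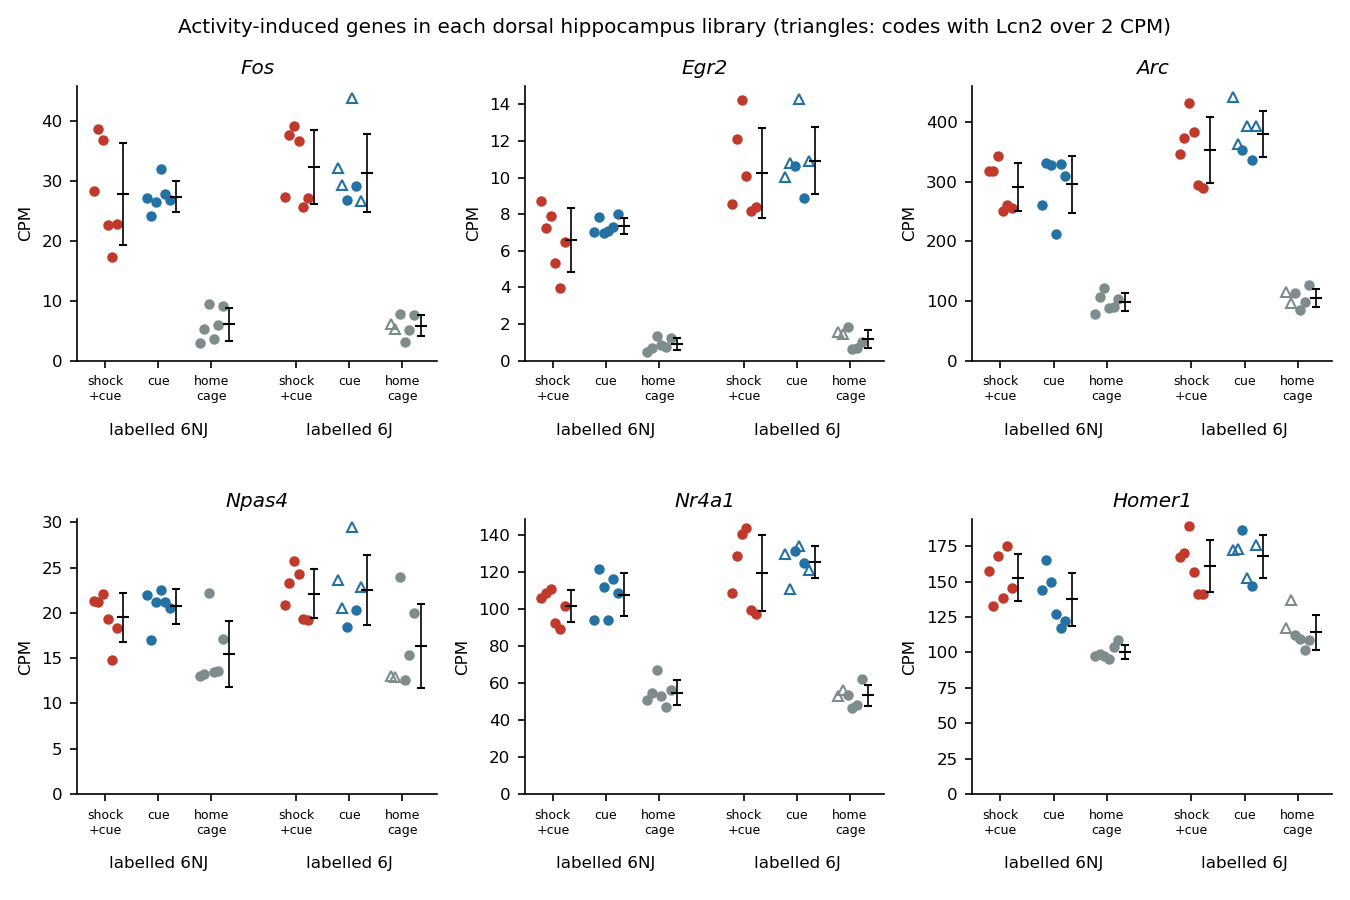
CPM (vertical axes, from 0) of 6 activity-induced genes in every DH library, by strain label and condition (horizontal axes), with the group mean and SD at the right of each group and triangles for codes with Lcn2 over 2 CPM. Shock and cue and cue overlap in all 6 genes, and in Fos, Egr2, Arc and Nr4a1 every exposed library lies above every home cage library.

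In some immediate early genes, the 2 code numbers of a group differed by more than the 2 conditions did. In the group labelled 6NJ given shock and cue, Fos was at 28.3, 38.6 and 36.8 CPM in the libraries of number 37 and at 22.6, 17.3 and 22.9 CPM in those of number 39. The corresponding cue group was at 27, 24.1 and 26.4 CPM in number 38 and at 31.9, 27.8 and 26.7 CPM in number 40. The libraries of number 39 thus lay below those of number 37 without overlap. The same order held in Fosb, Junb, Egr2, Arc, Nr4a1 and Npas4, a set looked at after the values were seen. Library 39B was the lowest of its group in Fos, Fosb, Junb, Egr2, Nr4a1 and Npas4. Over all genes tested, libraries of a number were not more alike than others of their group. Their consensus correlation in limma-voom was -0.036. Leaving out number 39 moved the Fos difference to 0.19, and leaving out number 37 moved it to -0.17, with 0 genes called either way. Egr2 moved to 0.0078 without number 39 and to -0.29 without number 37, and Arc to 0.015 and -0.16. The part of the number in these differences was not tested beyond these values, since a number lies wholly within 1 group.

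Of 36 later activity-induced genes tested, 0 passed for shock and cue against cue, and the median log2 fold change was -0.036. All 36 intervals lay within 1.5-fold, beside 89.2% of all genes. Against the home cage, 14 were higher after shock and cue and 18 after cue, beside 5.52% and 7.45% of all genes, with 0 and 1 lower, beside 4.49% and 5.57%. Their list medians over home cage were 0.14 after shock and cue and 0.19 after cue. Homer1, a scaffold of the postsynaptic density, had 133, 157 and 189 CPM after shock and cue, 117, 151 and 187 CPM after cue and 95.2, 106 and 137 CPM in the home cage. Its difference between shock and cue and cue was 0.047 ± 0.058 (adjusted p = 0.811). Bdnf, the brain-derived neurotrophic factor gene, had 43.1, 56.7 and 67.2 CPM after shock and cue and 43.2, 53.5 and 76 CPM after cue, a difference of -0.052 ± 0.059. Over home cage, Bdnf passed after cue (0.21 ± 0.059, adjusted p = 0.0181) and not after shock and cue (0.15 ± 0.059, adjusted p = 0.0981), and the direct comparison of the 2 conditions found no difference. Dusp6, a phosphatase that limits ERK signalling, had 61.3, 75.1 and 89.3 CPM after shock and cue and 61.5, 82.9 and 104.6 CPM after cue. Its log2 fold change was -0.17 ± 0.06, with an adjusted p of 0.426 and an interval from 0.816-fold to 0.966-fold.

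**Figure D3:**
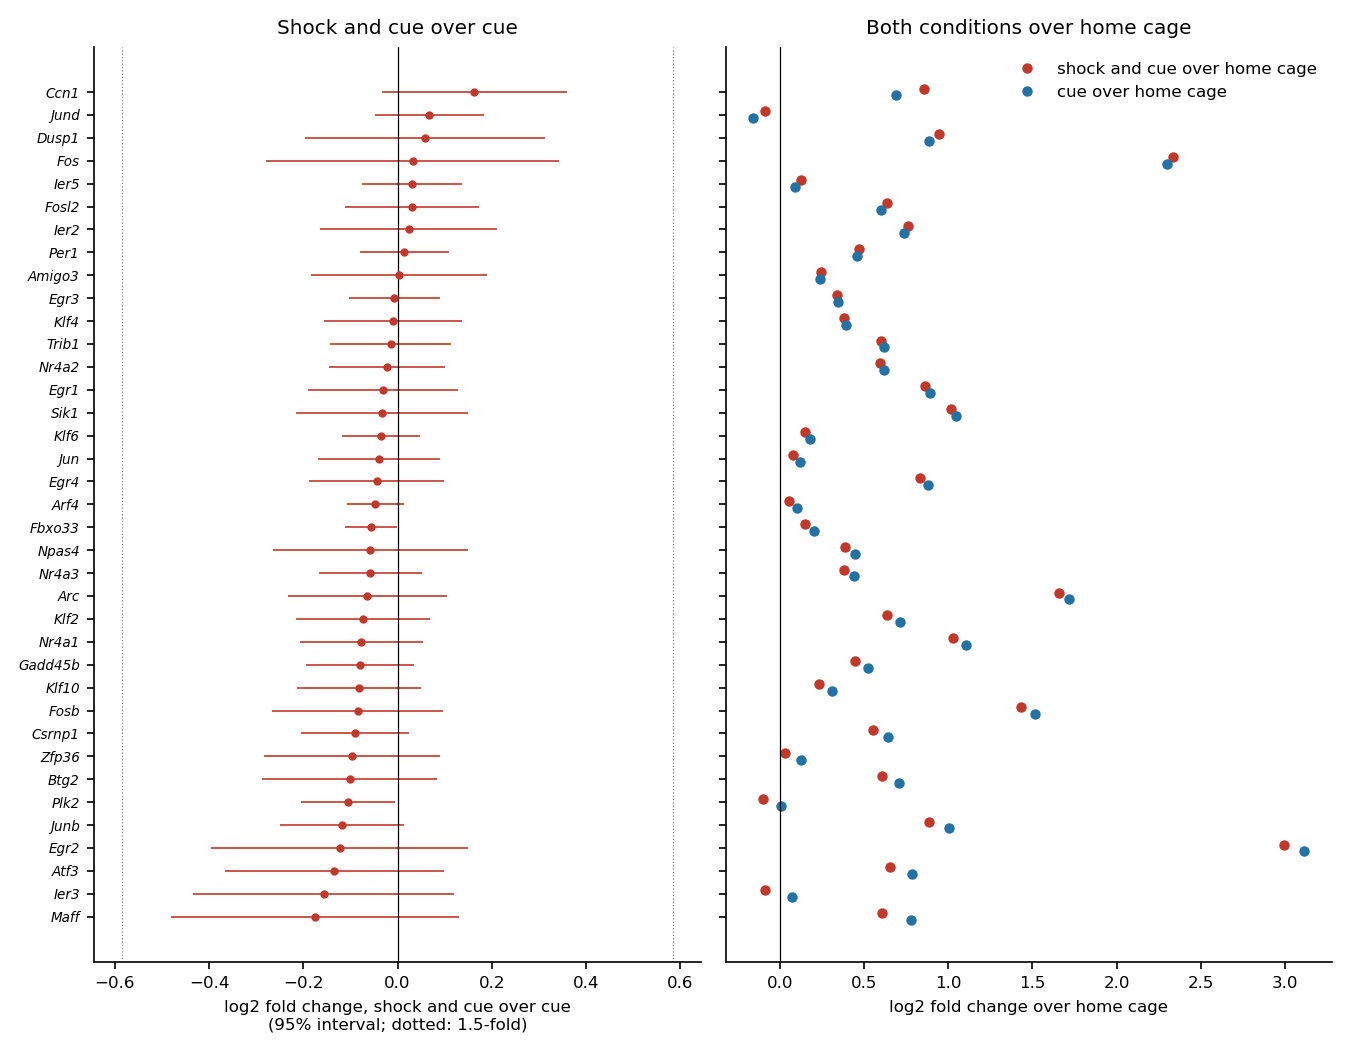
Log2 fold changes (horizontal axes) of the 37 rapid immediate early genes tested, ordered by the difference of shock and cue over cue, with 95% intervals at left and, at right, shock and cue over home cage and cue over home cage. All 37 intervals at left lie inside the dotted 1.5-fold lines, whereas Egr2 and Fos reach 2.99 and 2.33 over home cage after shock and cue, and 3.12 and 2.3 after cue.

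Splicing forms were examined in the estimated counts of transcripts. For shock and cue against cue, 0% of 56523 transcripts passed with edgeR, the smallest adjusted p was 0.432, and 3825 (6.77%) had an unadjusted p under 0.05. DESeq2 called 67 of these transcripts, 21 higher and 46 lower. For cue against home cage, 2031 transcripts (3.59%) passed, 1233 (2.18%) higher and 798 (1.41%) lower. Homer1-205, a form of 1533 bases, had 6.77, 10.9 and 14.1 CPM as its lowest, median and highest values after shock and cue, and 5.11, 9.82 and 11.3 CPM after cue. Its home cage median was 0.243 CPM, and cue over home cage gave a log2 fold change of 4.85 ± 0.28 (adjusted p = 1.86e-13). Shock and cue over cue gave 0.27 ± 0.23 (adjusted p = 0.902), with an interval from -0.20 to 0.73 on the log2 scale. Homer1-204, of 5713 bases, had medians of 56.8 CPM after shock and cue, 54.7 CPM after cue and 25.6 CPM in the home cage. It was also higher after cue than in the home cage, by 1.07 ± 0.11 (adjusted p = 4.56e-08), and differed by 0.13 ± 0.10 between shock and cue and cue. Homer1-202, of 4287 bases, had medians of 52.5 CPM after shock and cue, 53.3 CPM after cue and 48.1 CPM in the home cage. Estimated counts divide reads between forms of 1 gene, so the level of a form depends on that division.

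Glucocorticoid target genes were next, as a readout of the stress response. Of 26 tested, 0 passed for shock and cue against cue, with a median log2 fold change of -0.041. Against the home cage, 10 were higher after shock and cue and 11 after cue, beside 5.52% and 7.45% of all genes, with 1 and 0 lower, beside 4.49% and 5.57%. Sgk1, a kinase that regulates ion channels, had 78.1, 85.5 and 116 CPM after shock and cue, 73.1, 96 and 129 CPM after cue and 49.7, 55.6 and 76.5 CPM in the home cage. Its difference between shock and cue and cue was -0.11 ± 0.073 (adjusted p = 0.594), and both conditions passed over home cage, at 0.63 ± 0.074 after shock and cue and 0.74 ± 0.074 after cue. Tsc22d3, which encodes the glucocorticoid-induced leucine zipper, had 56.1, 62.6 and 71.7 CPM after shock and cue and 53.1, 61.7 and 109 CPM after cue, a difference of -0.049 ± 0.07. Per1, a clock gene that glucocorticoids also induce, differed by 0.015 ± 0.047, with an interval from 0.946-fold to 1.08-fold. Fkbp5, a co-chaperone that dampens the glucocorticoid receptor, had 46.4, 53.1 and 67 CPM after shock and cue and 47.7, 58.5 and 81.7 CPM after cue. Fkbp5 differed by -0.18 ± 0.062, which did not pass after adjustment (adjusted p = 0.426), and it was lower after shock and cue than in the home cage (-0.23 ± 0.062, adjusted p = 0.014). Without 6 codes that stood apart by Lcn2, a gene taken up with the strain labels, Fkbp5 differed by -0.016 ± 0.054 and Sgk1 by 0.037 ± 0.079.

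The response to shock was then compared between the strain labels, and glucocorticoid targets and chaperones had medians of opposite sign under the 2 labels. Tested by label, shock and cue against cue gave 0 genes labelled 6NJ (1399, or 7.12%, at an unadjusted p under 0.05) and 0 labelled 6J (1896, or 9.65%). The difference of the 2 responses, 6NJ minus 6J, gave 0 genes (1369, or 6.97%, at an unadjusted p under 0.05). DESeq2 called 0, 2 and 1 gene in these 3 comparisons, and limma-voom 0 in each. Without the libraries of number 34 there were 51 genes under 6J and 11 for the difference, and without number 32 there were 2 and 0. Without number 37, 38, 39 or 40 there were 1 and 0. The median of the glucocorticoid targets was 0.052 under the label 6NJ and -0.16 under 6J. The endoplasmic reticulum chaperones, which fold secreted proteins, had medians of 0.097 under 6NJ and -0.26 under 6J over 20 genes. The cytosolic heat shock chaperones had medians of 0.028 under 6NJ and -0.14 under 6J over 22 genes. The unadjusted p of the label difference was under 0.05 for 11 of 26 glucocorticoid targets, 12 of 20 endoplasmic reticulum chaperones and 12 of 22 heat shock chaperones, beside 6.97% of all genes. Genes of 1 list vary together, so these counts are descriptions.

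A group of codes stood apart by Lcn2, a gene of both the acute-phase and inflammation list and the glucocorticoid target list. In 6 codes Lcn2, which encodes the secreted iron-trapping protein lipocalin 2, was above 2 CPM in both regions, and all other codes were below 1 CPM in both. None of the 6 was in a shock and cue group. The 4 in the cue group labelled 6J were 32A, 32B, 34A and 34C, and the 2 in the home cage group labelled 6J were 35A and 35B. Lcn2 was at most 0.201 CPM in the 12 shock and cue libraries. In the cue libraries labelled 6J it was at 20.5, 13.8 and 0.108 CPM in number 32 and at 17.6, 0.114 and 7.93 CPM in number 34. The remaining values, in the cue libraries labelled 6NJ, were 0.0277 to 0.607 CPM. The log2 fold change was -4.21 ± 1.14 for both labels (adjusted p = 0.426), -1.11 ± 1.65 for 6NJ and -7.31 ± 1.34 for 6J (adjusted p = 0.12). The 6J group given shock and cue was near or at 0, so the size of that change depends on the prior count of the fit.

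Ch25h, a cholesterol 25-hydroxylase known as an interferon-stimulated gene, was highest in the cue codes labelled 6J that had Lcn2 over 2 CPM. Ch25h did not reach this level in the home cage, which held the other codes with Lcn2 over 2 CPM. There Ch25h was at most 0.843 CPM in its transcript Ch25h-201, against a highest value of 4.205 CPM after cue. Its gene (chromosome 19, 34473778 to 34475164, minus strand) had 0.0786, 0.341 and 0.519 CPM after shock and cue, against 0.217, 0.609 and 4.53 CPM after cue. The 4 highest cue values were 4.53, 2.44, 1.97 and 1.69 CPM, in codes 34A, 34C, 32B and 32A, and 4 shock and cue libraries lay below every cue library. Its difference was -1.89 ± 0.37 (adjusted p = 0.254), and the direction was lower after shock and cue under both labels, at -1.23 ± 0.54 for 6NJ and -2.54 ± 0.51 for 6J. Icam1, an adhesion molecule of inflamed endothelium, had 1.42, 1.85 and 2.47 CPM after shock and cue and 1.41, 2.3 and 11 CPM after cue (-0.67 ± 0.20, adjusted p = 0.426). Its highest cue value was in code 34C. Of the 18 genes of the acute-phase and inflammation list tested, 0 passed, 1 was positive and the median was -0.17, at 0.0088 under 6NJ and -0.39 under 6J.

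Hspa5, the main chaperone of the endoplasmic reticulum, had 166, 224 and 317 CPM after shock and cue, 161, 237 and 626 CPM after cue and 137, 161 and 193 CPM in the home cage. The highest value was in code 32B, and the next in the same group was 285 CPM in code 32A. Its difference was 0.22 ± 0.20 under the label 6NJ and -0.53 ± 0.20 under 6J (difference of the 2 responses 0.75 ± 0.28, adjusted p = 0.618). Hspa1b, an inducible heat shock protein whose reads can be divided with its near-identical copy Hspa1a, had 3.78, 6.43 and 10.3 CPM after shock and cue and 4.79, 7.44 and 16.2 CPM after cue. Its difference was 0.048 ± 0.19 under 6NJ and -0.75 ± 0.20 under 6J. Maff, a small MAF transcription factor of the rapid list, had 0.775 to 1.26 CPM after shock and cue and 0.609 to 0.975 CPM after cue under the label 6NJ. Under the label 6J it had 0.475 to 0.888 CPM after shock and cue and 0.704 to 1.88 CPM after cue. The difference of its responses was 1.24 ± 0.30 (adjusted p = 0.543).

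**Figure D4:**
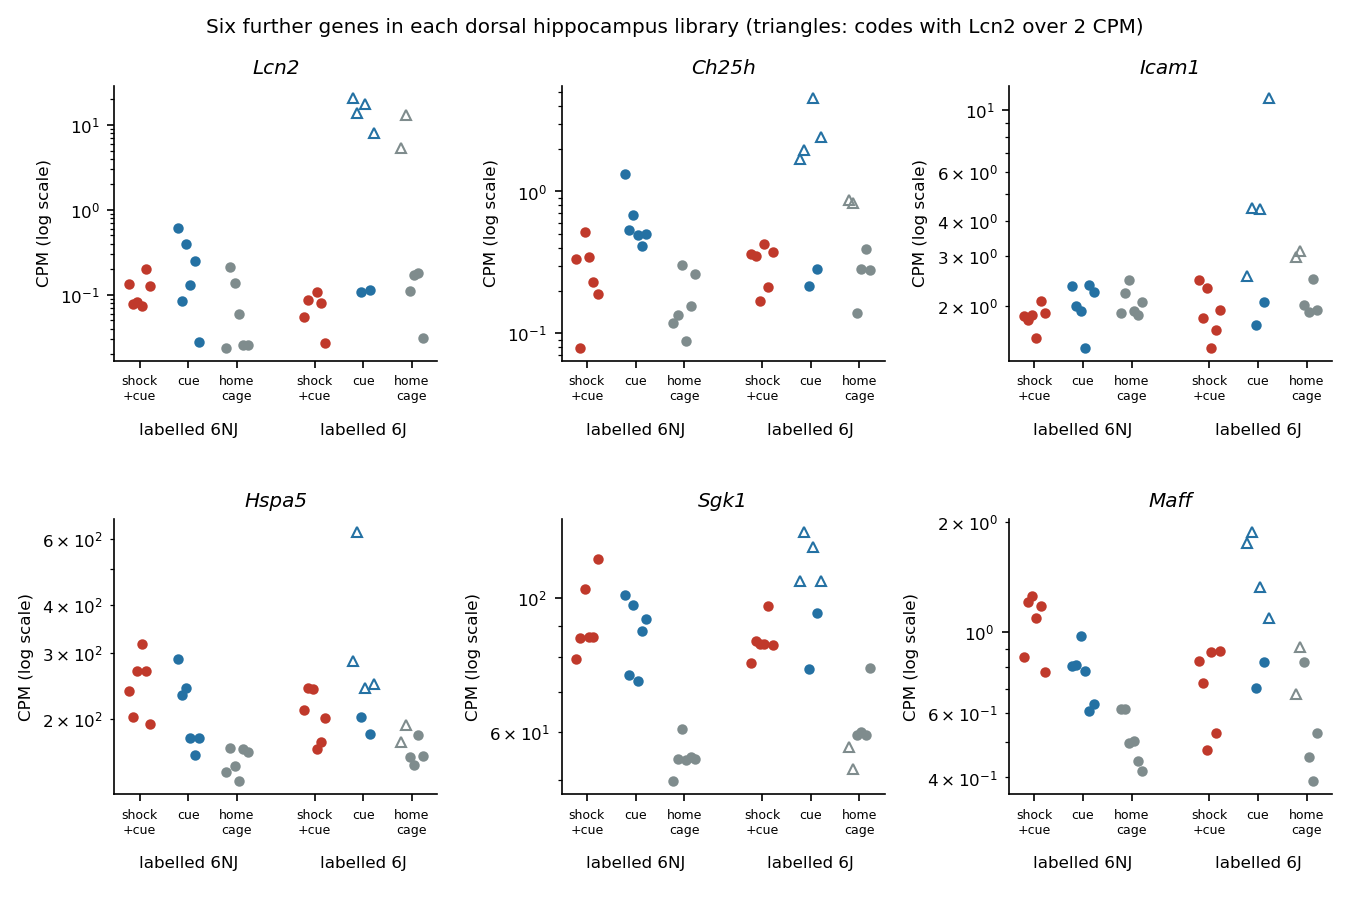
CPM (vertical axes, log scale) of Lcn2, Ch25h, Icam1, Hspa5, Sgk1 and Maff in every DH library, by strain label and condition, with triangles for the 6 codes with Lcn2 over 2 CPM. Lcn2 was 0 in code 31C (shock and cue, labelled 6J), which a log axis cannot show. The triangles of the cue group labelled 6J lie above that group's 2 other libraries in Lcn2 by the rule that picked them. They also do so in the other genes shown, which were picked for display.

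Without the 6 codes the split between labels was smaller, although the cue group labelled 6J then held only 2 libraries. The comparison of shock and cue with cue again gave 0 genes, now with 1038 at an unadjusted p under 0.05 (5.07% of the genes tested in that fit). The median of the endoplasmic reticulum chaperones became 0.093 under 6NJ and 0.069 under 6J. That of the glucocorticoid targets became 0.048 under 6NJ and 0.11 under 6J, and that of the heat shock chaperones 0.023 under 6NJ and -0.014 under 6J. The label difference then had an unadjusted p under 0.05 for 0 members of each of these 3 lists. Over all genes of that fit it did so for only 581 of 20459, so a count of 0 in lists of this size says little. Hspa5 differed by 0.21 ± 0.13 under 6NJ and 0.098 ± 0.19 under 6J, and Hspa1b by 0.043 ± 0.12 under 6NJ and 0.086 ± 0.17 under 6J. Over both labels, Icam1 differed by -0.065 ± 0.11, Lcn2 by -0.99 ± 0.54 and Ch25h by -0.45 ± 0.32. For Maff the difference of the 2 responses was 0.52 ± 0.32. Ch25h kept its value under 6NJ, -1.23 ± 0.33, and was at 0.33 ± 0.53 under 6J. The part of the codes in the results was not tested beyond these values, since the codes were picked by the level of Lcn2 itself. Lcn2 is also a member of the glucocorticoid target list.

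All 45 cytosolic ribosomal protein genes tested were positive for shock and cue over cue, with 0 past the threshold, a median of 0.11 and a range of 0.038 to 0.17. Of these, 29 had an unadjusted p under 0.05, beside 10.2% of all genes. Without the 6 codes all 45 were again positive, with a median of 0.096. Then 1 had an unadjusted p under 0.05, beside 5.07% of the genes tested in that fit. Genes of 1 list vary together, so these counts too are descriptions. Nuclear subunits of respiratory complex I were positive in 36 of 37 genes, with a median of 0.083. The 13 genes of the mitochondrial genome had a median of 0.16 and a range of -0.35 to 0.35, with 10 positive. The cytochrome oxidase subunit gene mt-Co1 had 14200 to 21470 CPM after shock and cue and 13330 to 17100 CPM after cue (0.16 ± 0.062, adjusted p = 0.427). Rps29, a protein of the small ribosomal subunit, had 163, 187 and 253.5 CPM after shock and cue and 156, 174 and 211 CPM after cue (0.14 ± 0.06, adjusted p = 0.45). Library 39B, labelled 6NJ, was the highest for both genes after shock and cue, with the next in its group at 18800 CPM for mt-Co1 and 204.8 CPM for Rps29. It also had the highest mitochondrial share, 8.64%. Without number 39, Rps29 differed by 0.097, and over all settings mt-Co1 differed by 0.13 to 0.19. Ribosomal protein genes have many processed pseudogenes, and their counts are uncertain for that reason. Against the home cage these 3 lists had medians of 0.013, 0.032 and -0.004 after shock and cue, and -0.10, -0.042 and -0.15 after cue.

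**Figure D5:**
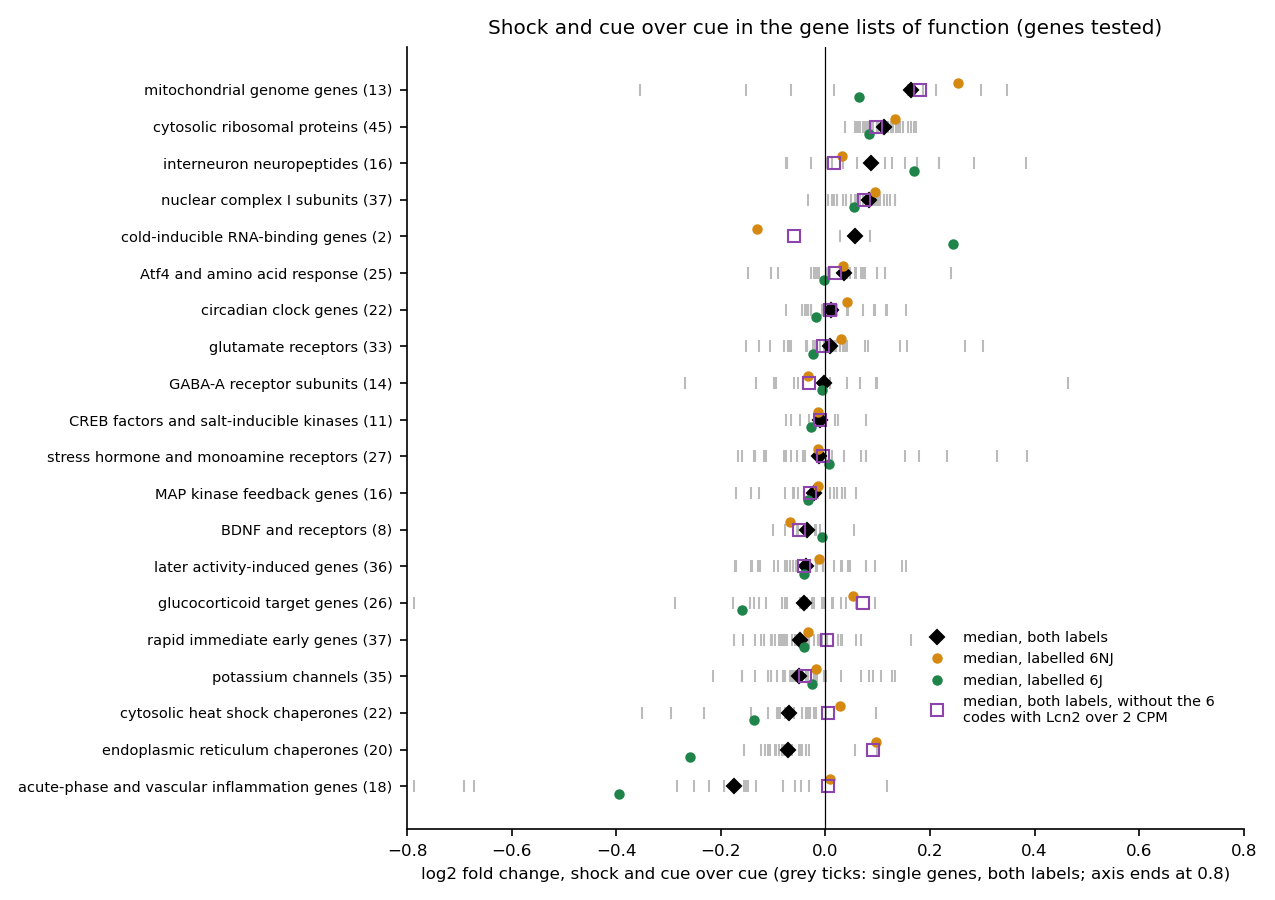
Log2 fold change of shock and cue over cue (horizontal axis) in the 20 gene lists of function, with grey ticks for single genes, filled marks for the median under both labels, under 6NJ and under 6J, and open squares for the median of both labels without the 6 codes with Lcn2 over 2 CPM. The endoplasmic reticulum chaperones lie at 0.097 under 6NJ and -0.26 under 6J, and genes beyond 0.8, such as Lcn2 at -4.21, are outside the axis.

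The lists of receptors and of cell types had 0 members past the threshold. The glutamate receptors had a median of 0.0089 over 33 genes, the GABA-A receptor subunits -0.0025 over 14 and the potassium channels -0.051 over 35. Oligodendrocyte markers were positive in 12 of 12 genes, with a median of 0.10, at -0.063 under the label 6NJ and 0.21 under 6J. Mbp, the myelin basic protein gene, had 3564, 4273 and 6601 CPM after shock and cue and 3028, 4012 and 4933 CPM after cue (0.20 ± 0.086, adjusted p = 0.449). Its highest value was also in library 39B, and the next in that group was 5851 CPM. The summed level of the 12 oligodendrocyte markers was 7865 to 13600 CPM after shock and cue and 6670 to 11670 CPM after cue. Astrocyte markers had a median of 0.037, microglia markers -0.045, dentate granule cell markers -0.051 and CA1 pyramidal cell markers -0.11. The choroid plexus markers had a median of -0.21, and none of the 14 had an interval within 1.5-fold, beside 89.2% of all genes.

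Outside the lists, 3 genes chosen after their values were seen had small p-values. Msi1, an RNA-binding protein of neural stem cells and astrocytes on chromosome 5 from 115429599 to 115455698, had 30, 32.5 and 36 CPM after shock and cue and 27.8, 30.5 and 32.7 CPM after cue. Under the label 6NJ it had 30 to 32.2 CPM after shock and cue and 27.8 to 30.5 CPM after cue, which overlap. Under the label 6J it had 32.8 to 36 CPM after shock and cue and 30.5 to 32.7 CPM after cue, which do not overlap. The log2 fold change was 0.11 ± 0.024 (adjusted p = 0.254), with 0.097 under 6NJ and 0.13 under 6J. Over 20 alternative settings it stayed between 0.10 and 0.12. Zbtb40, a zinc finger gene on chromosome 4 from 136979732 to 137048801, had the smallest p for the difference between labels. Its response was 0.40 ± 0.10 under 6NJ and -0.36 ± 0.10 under 6J (difference 0.76 ± 0.15, adjusted p = 0.132). Cd44, a receptor for hyaluronan, had responses of -0.44 ± 0.14 under 6NJ and 0.42 ± 0.14 under 6J (difference -0.86 ± 0.19, adjusted p = 0.543). Among listed genes, Rspo1, a Wnt agonist of the neocortical marker list, had 0.942, 1.31 and 4.3 CPM after shock and cue and 0.466, 1.01 and 1.41 CPM after cue (0.87 ± 0.23, adjusted p = 0.426).

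No gene passed for a difference between the responses to shock in DH and VH. In a fit of all 72 libraries, 0% of 20255 genes passed for the difference of the 2 responses, DH minus VH, with 379 (1.87%) at an unadjusted p under 0.05 and 0 by DESeq2. In VH alone, 0% of the genes passed for shock and cue against cue, with 1313 at an unadjusted p under 0.05. Fos had a log2 fold change of 0.031 in DH and -0.094 in VH (difference 0.13 ± 0.19), and Arc one of -0.065 in DH and -0.15 in VH (difference 0.087 ± 0.10). Ch25h was at -1.89 in DH and -1.05 in VH (difference -0.84 ± 0.52). The rapid immediate early genes had a median of -0.061 in VH and a median difference between regions of 0.0074 over 37 genes. The 36 codes occur in both regions, so the 2 comparisons draw on the same codes. The edgeR fit of 72 libraries did not pair the 2 regions of a code. With the code as a replicate block, 0 genes passed as well, with 507 at an unadjusted p under 0.05.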

How the data were processed

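Bulk RNA was measured in 72 hippocampal libraries, of which the 36 of dorsal hippocampus entered the main fit. The authors deposited a table of raw gene counts and a table of estimated counts per transcript. Reads were 75 bp single-end from a stranded mRNA kit, per the labels' protocols, and FastQC, HISAT2, featureCounts, kallisto, DESeq2 and GRCm38 are named in the submitters' processing notes, with no versions and no strand setting. Genes were filtered with filterByExpr, TMM-normalised and tested with edgeR 4.0.16 (quasi-likelihood, robust) in R 4.3.3, with 1 mean per group and Benjamini-Hochberg adjustment at 0.05. Estimated counts were rounded to whole numbers first. Alternatives used DESeq2 1.42.0, limma 3.58.1 (voom), other filters and scalings, and left out code numbers or libraries. Fits were tested on simulated data. The smallest chi-square per degree of freedom between libraries of a group was 4.55 over 90 pairs, more than counting noise alone gives, and each library counted as 1 replicate. This does not show that 2 libraries came from separate mice. The members and gene lists were chosen with earlier results of these data known. Genes named in the text are members of these lists, and others are said to be chosen after their values were seen. With 33681457 to 47703347 counts per library in the comparison, the median standard error was 0.059 on the log2 scale.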

Additional observations from a re-analysis of the deposited data

Results flagged for a closer look

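In 128 groups of 6 libraries (32 genes in 4 groups), 12 groups had 1 library far from the other 5 by Dixon's test, which chance gives in about 1 in 20 groups. In the shock and cue groups, Rspo1 was at 4.295 CPM in library 37B (others 0.942 to 1.58), Dusp6 at 89.33 CPM in 31C (others 74.9 to 78) and Sgk1 at 97.22 CPM in 33B (others 78.1 to 85). In the cue group labelled 6NJ, Ch25h was at 1.339 CPM in 38A (others 0.415 to 0.685) and Fosb at 16.29 CPM in 40A (others 11.1 to 12.3). In the same group Npas4 was lowest at 17.02 CPM (others 20.6 to 22.5) and Rspo1 lowest at 0.645 CPM (others 0.96 to 1.1), both in 38B. In the cue group labelled 6J, library 34A was highest for Fos at 43.75 CPM (others 26.6 to 32.2), Egr2 at 14.31 CPM (others 8.88 to 10.9) and Dusp1 at 28.35 CPM (others 15.1 to 18.8). There too, Hspa5 was at 626.3 CPM in 32B (others 182 to 285) and Icam1 at 10.99 CPM in 34C (others 1.71 to 4.46).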

How the results depend on the processing

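For shock and cue against cue, DESeq2 called 3 genes and leaving out 1 code number gave 0 to 1 (Ch25h without number 32), against 0. Under the label 6J, the count was 1 with no low-count filter (Serpina3f, seen afterwards), 2 with DESeq2 and 1 with only the 24 libraries (Lcn2). Leaving out 1 number gave 0 to 51 there, with 2 without number 32 and 51 without number 34 (21 higher, 30 lower). Serpina3f was again the 1 gene called, and lower, without number 37, 38, 39 or 40. For the difference between labels, DESeq2 called 1 (Zbtb40), and leaving out 1 number gave 0 to 11, the 11 without number 34. DESeq2 called 67 transcripts, against 0. The cause was not tested. The other 66 of 80 counts were 0, the same as the main count. Of 2770 values of single genes under an alternative, 2764 stayed on their side of the threshold and 6 passed it. With 0 genes called in the main fit, staying was nearly fixed in advance. The sign changed in 226 of the values. The largest main size among these was 6.2, for Lcn2's difference between labels, which was -0.24 without the codes with Lcn2 above 2 CPM. The DH and VH libraries of a code deviated together with a correlation above 0.1 in 26 of 36 codes and not in the others, and 9 codes correlated best with themselves. With code as a replicate block the regional difference gave 0 genes, with 507 at an unadjusted p under 0.05 and a smallest adjusted p of 0.905.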
